A study of Homo sapiens with 4 samples.

Results

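The genes described here encode 10 detoxification enzymes that are known targets of the transcription factor NRF2, among 57905 genes counted by RNA sequencing in U87MG cells, an established human glioblastoma line. They are named by function, in a list drawn up with earlier results of these data known: *NQO1*, *CBR1*, *AKR1B1*, *AKR1C1*, *AKR1C2*, *AKR1C3*, *GSTP1*, *GSTM3*, *MGST1* and *EPHX1*. All 10 were found by Ensembl identifier, and all 10 passed the filter on low counts. Wild type U87MG cells were either left untreated (control, 2 samples) or given 50 nM chaetocin, a fungal metabolite that inhibits histone methyltransferases, for 24 h (2 samples). Chaetocin was supplied in DMSO and the controls were left untreated, so the compound and its solvent cannot be told apart. The line is a single long-cultured glioblastoma line, and nothing states that the samples of a group came from separate experiments, so the p-values below measure the spread between these samples, which may be technical.

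NRF2 is held in the cytoplasm by KEAP1, which directs it to degradation. When oxidants or electrophiles modify the cysteines of KEAP1, NRF2 accumulates, pairs with a small MAF protein and binds the antioxidant response element, a short DNA motif near its target genes. The enzymes described here deal with reactive compounds in successive ways: quinone and carbonyl groups are reduced (*NQO1*, *CBR1* and the aldo-keto reductases), electrophiles are joined to glutathione (*GSTP1*, *GSTM3*, *MGST1*), and epoxides are opened with water (*EPHX1*). In glioblastoma several of these enzymes are studied for their part in the handling of alkylating drugs.

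In brief, 1 of the 10 genes passed the test. *NQO1* rose 2.17-fold with chaetocin. The other 9 did not pass at an adjusted p-value of 0.05, although the log2 fold change was above 0 in 9 of the 10 genes, *NQO1* included. Of these, *AKR1C2* was so close to 0 (0.0026) that it changed sign with RLE size factors (-0.00061). *AKR1B1*, the most abundant of the enzymes, had a value below 0.

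The promoter sequences of 3 genes are shown first because they bear on whether the enzymes share the NRF2 motif close to their start sites. The sequences are from RefSeq (GRCh38.p14) and run 5′ to 3′ on the gene's own strand over the 250 bases before the start. *NQO1* is the gene that passed the test, and its window chr16:69726561-69726810 (minus strand) holds no copy of the motif TGACNNNGC on either strand. *GSTP1* (chr11:67583562-67583811, plus strand) holds one copy, in capitals. *AKR1C1* (chr10:4963165-4963414, plus strand) is shown for its likeness to *AKR1C2*, and the capitals mark the bases that have no partner upstream of *AKR1C2*.
NQO1: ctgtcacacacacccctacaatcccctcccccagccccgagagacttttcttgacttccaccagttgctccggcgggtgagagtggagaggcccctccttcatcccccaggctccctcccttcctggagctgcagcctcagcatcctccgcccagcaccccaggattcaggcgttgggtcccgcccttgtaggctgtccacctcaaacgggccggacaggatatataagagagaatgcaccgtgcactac
GSTP1: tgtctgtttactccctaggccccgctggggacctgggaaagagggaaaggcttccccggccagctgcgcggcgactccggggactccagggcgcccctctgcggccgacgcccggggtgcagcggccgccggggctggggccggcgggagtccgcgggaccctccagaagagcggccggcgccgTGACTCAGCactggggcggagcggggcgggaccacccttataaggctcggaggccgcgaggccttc
AKR1C1: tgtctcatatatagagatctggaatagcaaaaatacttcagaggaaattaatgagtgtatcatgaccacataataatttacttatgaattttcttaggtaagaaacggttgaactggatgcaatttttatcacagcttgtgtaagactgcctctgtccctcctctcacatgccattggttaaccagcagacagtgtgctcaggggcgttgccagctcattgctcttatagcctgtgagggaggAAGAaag

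The motif TGACNNNGC, the core of the antioxidant response element, was searched on both strands from 250 bases before to 50 bases after each start, where N stands for any base. It was found for 4 of the 10 enzyme genes (40%), against 16.1% of 27305 genes. By window the background was 13.3% of 35116 windows of the same length, and a gene with several starts has several windows. The copies were TGACTTTGC at position -159 on the minus strand of *CBR1*, TGACTCAGC at -66 of *GSTP1*, TGACAAAGC at 31 of *MGST1* (1 of its 3 starts) and TGACTTGGC at -78 of *EPHX1* (1 of its 3 starts), with positions counted from the start. *NQO1*, *AKR1B1*, *GSTM3* and the 3 *AKR1C* genes had no match, which says only that these letters are not in this window. Among related genes, the motif was found for 5 of 13 antioxidant NRF2 targets, 5 of 15 other glutathione transferases and 3 of 6 export pumps. It was found for 3 of 12 NRF2 regulators, 2 of 13 glucuronosyl- and sulfotransferases and 2 of 12 cytochrome P450 genes and partners. Of 14 other quinone and carbonyl reductases 1 had it, and of 2 other epoxide hydrolases and 13 aldehyde dehydrogenases 0 did. A match is a description of the sequence and not evidence of binding.

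The *AKR1C* genes lie side by side on chromosome 10 and were nearly identical in places, which matters for single-end reads of 50 bases. On GRCh38 (GENCODE v29), *AKR1C1* (ENSG00000187134) spans chr10:4963253-4983283 on the plus strand, *AKR1C2* (ENSG00000151632) chr10:4987400-5018031 on the minus strand and *AKR1C3* (ENSG00000196139) chr10:5035354-5107686 on the plus strand. All 250 bases upstream of *AKR1C2* were present in the window of *AKR1C1*, which runs to 50 bases after its start. *AKR1C1* had 4 bases more within this match. The window of *AKR1C3* was 75.7% or 75.3% identical to that of *AKR1C1*, depending on the start of *AKR1C3*. The coding sequences are each 972 bases long. *AKR1C1* and *AKR1C2* differed at 19 of these bases (98% identical), whereas *AKR1C3* differed from *AKR1C1* at 79 (91.9%) and from *AKR1C2* at 85 (91.3%). The longest identical run of *AKR1C1* and *AKR1C2*, coding bases 784 to 972, is shown first, with the bases of *AKR1C3* that differ in capitals.
AKR1C1 and AKR1C2: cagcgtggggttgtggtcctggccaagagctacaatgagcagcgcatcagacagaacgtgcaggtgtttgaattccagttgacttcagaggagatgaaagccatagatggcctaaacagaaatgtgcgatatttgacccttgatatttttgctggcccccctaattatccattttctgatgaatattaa
AKR1C3: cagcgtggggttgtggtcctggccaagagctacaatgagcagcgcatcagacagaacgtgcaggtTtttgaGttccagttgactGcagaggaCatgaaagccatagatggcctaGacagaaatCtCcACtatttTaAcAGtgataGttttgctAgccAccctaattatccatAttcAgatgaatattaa

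A read of 50 bases from the first of these stretches could come from *AKR1C1* or *AKR1C2*. *AKR1C2* and *AKR1C3* were identical over coding bases 678 to 848. A read that lies within bases 784 to 848 could therefore come from *AKR1C3* as well. The next lines show the 50 bases, coding positions 111 to 160, where *AKR1C1* and *AKR1C2* differ most, with capitals for bases unlike *AKR1C1*. Here *AKR1C2* differed from *AKR1C1* at 8 bases and *AKR1C3* at 5, so a read of this window names its gene.
AKR1C1: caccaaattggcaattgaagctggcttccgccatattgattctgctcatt
AKR1C2: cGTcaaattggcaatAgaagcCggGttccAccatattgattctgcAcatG
AKR1C3: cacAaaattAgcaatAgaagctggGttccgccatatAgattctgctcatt

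The control libraries held 25918137 and 30351416 counts, and the chaetocin libraries 21241984 and 32590479. Values are given as CPM, read counts scaled by each library's TMM-normalized size, and 3 counts, about the limit that a count of 0 allows, corresponded to between 0.0844 and 0.138 CPM. PCR copies of a molecule were not told apart, so such limits and the intervals on shares below cover counting error only. Across all 16416 genes tested, 182 (1.11%) were higher and 122 (0.743%) lower with chaetocin at an adjusted p under 0.05 (edgeR's quasi-likelihood test), 304 (1.85%) in all, so that 59.9% of calls were higher. This share was 73.7% of 334 calls with upper-quartile scaling, but 50.9% with no filter on low counts, 44.5% by DESeq2, 44.3% without chaetocin 1 and 43.1% without chaetocin 2, so the balance of calls turned with the setting. Of the glioblastoma and mesenchymal markers all 10 were tested, with a summed level of 14779 to 17890 CPM in control and 6950 to 11779 CPM in chaetocin samples, and 1 (*CHI3L1*) fell. None of the 10 had a log2 fold change above 0 (median -0.73), 6 had both chaetocin samples below both controls, 6 were lower at an unadjusted p under 0.05, 5 were called lower by DESeq2 and 10 without chaetocin 1. Of 8 glial markers 5 were tested, and the list summed to 77.6 to 88.8 CPM in control and 39.3 to 48.4 CPM in chaetocin samples. In 4 of these 5 both chaetocin samples lay below both controls, and *SLC1A3*, a glutamate transporter, fell (log2 fold change -1.22, adjusted p = 0.0266). The fifth, *ALDH1L1*, had 5 and 16 counts in control and 22 and 37 in chaetocin samples (log2 fold change 1.39, adjusted p = 0.217), and at an unadjusted p under 0.05 the list had 2 lower and 1 higher. The astrocyte marker *GFAP* had 25, 25, 10 and 17 counts in control 1, control 2, chaetocin 1 and chaetocin 2, and *AQP4* had 0 counts in every sample. Leukocyte markers summed to 41.5 to 46.5 CPM in control and 69.1 to 77.8 CPM in chaetocin samples, with 3 of 7 tested called higher (*LCP1*, *ITGAM* and *PTPRC*). DESeq2 called 2 of them, without *PTPRC* (adjusted p = 0.0553), and after downsampling to the smallest library 1 was called, with *ITGAM* and *PTPRC* both at an adjusted p of 0.0508. The call of *PTPRC* was also lost without control 1 (adjusted p = 0.0964). With at least 10 counts required in every sample, 4 leukocyte markers were tested and 1 (*LCP1*) was called. *ITGAM* and *PTPRC* then had no value. The leukocyte genes *CD3E* and *TYROBP* had 0 counts throughout. Epithelial markers summed to 2.64 to 2.79 CPM in control and 4.69 to 6.47 CPM in chaetocin samples. All 3 tested had both chaetocin samples above both controls and an unadjusted p under 0.05 (median log2 fold change 1.04), 0 were called, and *KRT5* had 0 counts in every sample. Neuronal markers summed to 63.1 to 69.8 CPM in control and 37.2 to 57.4 CPM in chaetocin samples, and hepatocyte ones to 1.19 to 2.05 and 2.39 to 3.35 CPM. Of the tested neuronal (3), endothelial (3) and hepatocyte (1) markers 0 were called by edgeR, and DESeq2 called 1 endothelial marker lower. The part of these marker changes in the results below was not tested.

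Within each group the 10 genes covered a wide range of levels. Per kilobase of annotated exon, *AKR1B1* was highest, at a mean of 475 CPM per kb in control samples, followed by *NQO1* at 88.4, *MGST1* at 55.9, *GSTP1* at 44.3, *EPHX1* at 18.4, *CBR1* at 15.7, *AKR1C3* at 9.72, *AKR1C1* at 5.52, *AKR1C2* at 1.11 and *GSTM3* at 0.0807. The order was the same with chaetocin, where *AKR1B1* had 359 and *NQO1* 192 CPM per kb. No neighbours in this order overlapped between samples of either group. Annotated exon length counts every exon of a gene, including ones that may not be used in these cells.

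**Figure D1:**
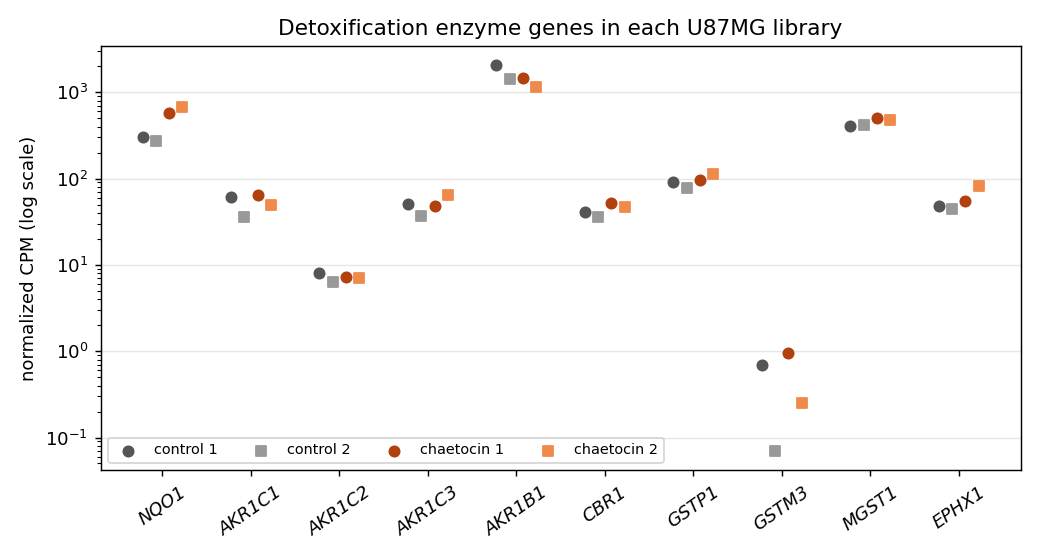
Normalized CPM (log axis) of the 10 enzyme genes in each library, with 1 point per sample: control 1 and 2 in grey, chaetocin 1 and 2 in orange. *NQO1* is the gene whose chaetocin points, 568 and 681 CPM, stand well clear of the control points, 301 and 275 CPM, and *AKR1B1* is the most abundant in all 4 samples.

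Of the 10 genes, 1 was called higher, against 1.11% of all genes tested, and 0 were called lower, against 0.743%. DESeq2 gave the same counts of 1 and 0. At an unadjusted p under 0.05, 3 were higher (*NQO1*, *EPHX1* and *CBR1*), against 10.9% of all genes, and 0 were lower, against 9.43%. Both chaetocin samples lay above both controls in 5 genes (*NQO1*, *CBR1*, *GSTP1*, *MGST1* and *EPHX1*), against 26.8% of all genes, and below both in 0, against 26.0%. The samples of the other 5 overlapped. The median log2 fold change was 0.32, beside 0.0079 over all genes tested, and 9 of the 10 genes were above 0 (with *AKR1C2* at 0.0026, and below 0 with RLE size factors), against 50.9%. The median depended on which control was used, at 0.52 without control 1 and 0.16 without control 2.

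*NQO1* (ENSG00000181019, chr16:69706996-69726951, minus strand) encodes NAD(P)H quinone dehydrogenase 1, which reduces quinones by transfer of a pair of electrons and so avoids reactive semiquinones. Its level was 301 and 275 CPM in the controls, compared with 568 and 681 CPM after chaetocin. Both chaetocin samples were far above both controls, and the gap between groups was larger than the gap within either. On the log2 scale this was a fold change of 1.12 (SE 0.18, 95% interval 0.71 to 1.52), with an adjusted p of 0.0306. By p-value the gene ranked 100 and by size of increase 991 among the 16416 genes. Leaving out control 2 ended the call, with a log2 fold change of 1.04 and an adjusted p of 0.121, whereas it stood without each of the other libraries. Of its 50-base stretches, 15.3% also occur in other genes, mostly in an antisense transcript over its exons that had 0 counts in every sample. Whether the counting used strand is not given in the sources used here, so reads of the pair cannot be told apart.

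*CBR1* (ENSG00000159228, chr21:36069941-36073166, plus strand) encodes carbonyl reductase 1, which reduces quinones and the carbonyl groups of prostaglandins and drugs such as anthracyclines. It had 40.8 and 35.9 CPM in control and 52.8 and 47.0 CPM in chaetocin samples. Both treated samples were above both controls, by a small margin. Its log2 fold change of 0.38 (SE 0.16, 95% interval 0.02 to 0.73) did not pass after adjustment over all genes (adjusted p = 0.226, edgeR). A non-coding gene on the opposite strand, *CBR1-AS1*, covers 18.9% of its exon bases and had 4 and 1 counts in control and 2 and 18 counts in chaetocin samples.

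*AKR1B1* (ENSG00000085662, chr7:134442350-134459284, minus strand) encodes aldose reductase, which reduces glucose to sorbitol and also clears aldehydes from lipid oxidation. It had 2055 and 1423 CPM in the controls and 1460 and 1165 CPM with chaetocin. The first chaetocin sample was above the second control, so the groups overlapped. This gave a log2 fold change of -0.41 (SE 0.24, 95% interval -0.95 to 0.14) and an adjusted p of 0.381. The value was below 0 in every alternative tried, but its size ran from -0.66 without control 2 to -0.13 without control 1 (adjusted p from 0.0971 to 0.959 with single libraries left out).

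The 3 *AKR1C* enzymes reduce ketosteroids, prostaglandins and aldehydes. *AKR1C1* had 60.6 and 36.1 CPM in control and 65.3 and 49.3 CPM in chaetocin samples, and its log2 fold change was 0.24 (adjusted p = 0.632). *AKR1C2* had 8.07 and 6.30 CPM in control and 7.26 and 7.12 CPM in chaetocin samples, with a log2 fold change of 0.0026 (95% interval -0.52 to 0.53). Neither gene separated the groups. *AKR1C3*, also known as a prostaglandin F synthase, had 51.0 and 37.2 CPM in control and 48.0 and 64.3 CPM in chaetocin samples, a log2 fold change of 0.35 (95% interval -0.12 to 0.83, adjusted p = 0.382). The second chaetocin sample was the highest and the first lay between the controls. All 3 were lower in control 2 than in control 1, and the log2 fold change of *AKR1C1* was 0.65 without control 1 and -0.09 without control 2. That of *AKR1C3* ran from 0.12 to 0.58 as single libraries were left out, and it passed in none of these fits.

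The counts per *AKR1C2* count of *AKR1C1* were 7.51 and 5.73 in control and 8.99 and 6.92 in chaetocin samples, ranges that overlap. How reads common to both genes were assigned is not given in the sources used here, so this split is uncertain. The counts of *AKR1C1* to *AKR1C4* were therefore also summed. The sum was 120 and 79.6 CPM in control and 121 and 121 CPM in chaetocin samples, a log2 fold change of 0.28 (adjusted p = 0.474, edgeR), so the summed family did not pass the test either. *AKR1C4* contributed at most 6 counts to any sample.

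*GSTP1* (ENSG00000084207, chr11:67583595-67586656, plus strand) encodes glutathione S-transferase pi, which joins glutathione to electrophiles, alkylating drugs among them. It had 90.6 and 78.7 CPM in the controls and 95.1 and 112 CPM with chaetocin. The groups did not overlap, but the lower chaetocin sample was close to the higher control. The log2 fold change was 0.29 (95% interval -0.07 to 0.65, adjusted p = 0.335), and it passed only without chaetocin 1 (0.41, adjusted p = 0.0485).

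*MGST1* (ENSG00000008394, chr12:16347142-16609259, plus strand) encodes a membrane-bound glutathione transferase that also reduces lipid peroxides. It had 411 and 421 CPM in control and 507 and 472 CPM in chaetocin samples, and the samples of each group lay close together. Both chaetocin samples were higher than both controls. With a log2 fold change of 0.23 (95% interval -0.13 to 0.60), the adjusted p was 0.452.

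*GSTM3* (ENSG00000134202, chr1:109733932-109741038, minus strand), a mu-class glutathione transferase, was close to undetected. It had 17 and 2 counts in the controls and 21 and 9 counts with chaetocin, or 0.70, 0.07, 0.97 and 0.25 CPM. The second control was at or under the level of 3 counts. The log2 fold change of 0.63 had a 95% interval of -1.59 to 2.85, so no difference was detectable with this spread between samples. Its value ran from -0.55 to 2.98 as single libraries were left out. The counts of *GSTM1* to *GSTM5* together came to 44.3 and 46.8 CPM in control and 50.5 and 62.9 CPM in chaetocin samples. Their log2 fold change was 0.32 (adjusted p = 0.318, edgeR). This sum held 1080 and 1346 counts in control and 1099 and 2234 in chaetocin samples, so it mostly describes the other *GSTM* genes.

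*EPHX1* (ENSG00000143819, chr1:225810092-225845563, plus strand) encodes microsomal epoxide hydrolase, which converts epoxides to diols. It had 48.2 and 44.2 CPM in control and 55.6 and 81.6 CPM in chaetocin samples. Both chaetocin samples were above both controls, and they differed from each other by more than the controls did. Its log2 fold change of 0.57 (SE 0.20, 95% interval 0.12 to 1.03) had an adjusted p of 0.159. It was 0.82 without chaetocin 1, where it passed (adjusted p = 0.000736), and 0.26 without chaetocin 2, where it did not (adjusted p = 0.539). Without a filter on low counts it also passed (adjusted p = 0.0395), as it did in no other fit without a block that used all 4 libraries.

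**Figure D2:**
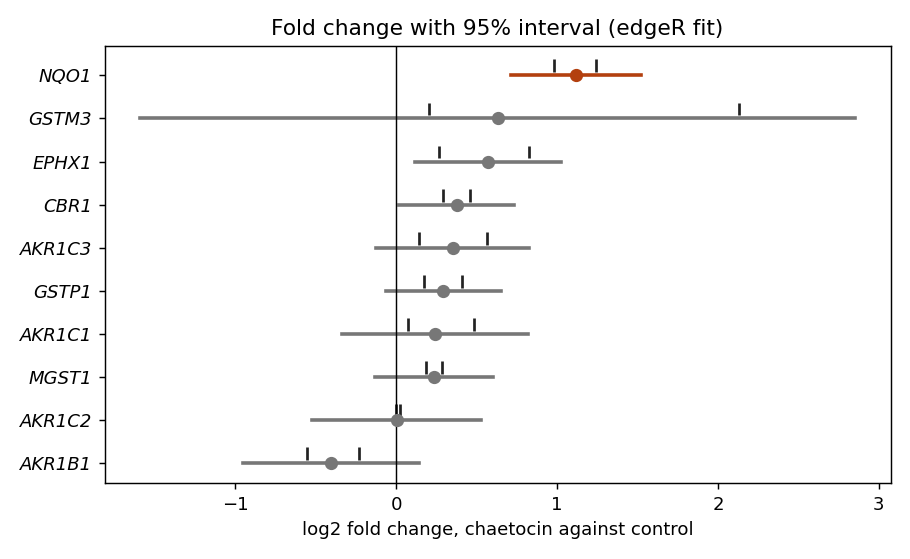
Log2 fold change of each enzyme gene, chaetocin against control (circles), with its 95% interval from the edgeR fit (lines), and the log2 difference of each chaetocin sample from the control mean (short ticks). *NQO1*, in orange, passed at an adjusted p under 0.05, and the intervals of *EPHX1* (0.12 to 1.03) and *CBR1* (0.02 to 0.73) also lie above 0.

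Together the 10 genes made up 3067 and 2357 CPM in control and 2860 and 2680 CPM in chaetocin samples, totals that overlap. Sums without *AKR1B1*, the most abundant, were formed after these values were seen. Without *AKR1B1* the other 9 genes summed to 1012 and 934 CPM in control and 1400 and 1515 CPM with chaetocin. Without *NQO1* as well, 8 genes summed to 711 and 659 CPM in control and 832 and 834 CPM with chaetocin. Of all counts on the 10 genes, *NQO1* took 9.80% (95% exact binomial interval 9.59 to 10.0) and 11.7% (11.4 to 11.9) in control samples and 19.9% (19.5 to 20.2) and 25.4% (25.1 to 25.7) in chaetocin samples. *AKR1B1* took 67.0% and 60.4% in control and 51.1% and 43.5% in chaetocin samples. The number of *NQO1* counts per *AKR1B1* count was 0.146 and 0.193 in control and 0.389 and 0.585 in chaetocin samples.

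Replicates differed in a way that touched most of the enzymes. Control 2 was lower than control 1 in 9 of the 10 genes, *MGST1* being the exception, compared with 48.8% of all genes tested. Between the chaetocin samples, 6 of the 10 were lower in the second, beside 49.8% of all genes. In 5 of the 10 genes the log2 fold change was larger in size than both the gap between the controls and the gap between the chaetocin samples. These are the same genes whose groups did not overlap, so the count adds no separate result. Its share over all genes tested was not computed.

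**Figure D3:**
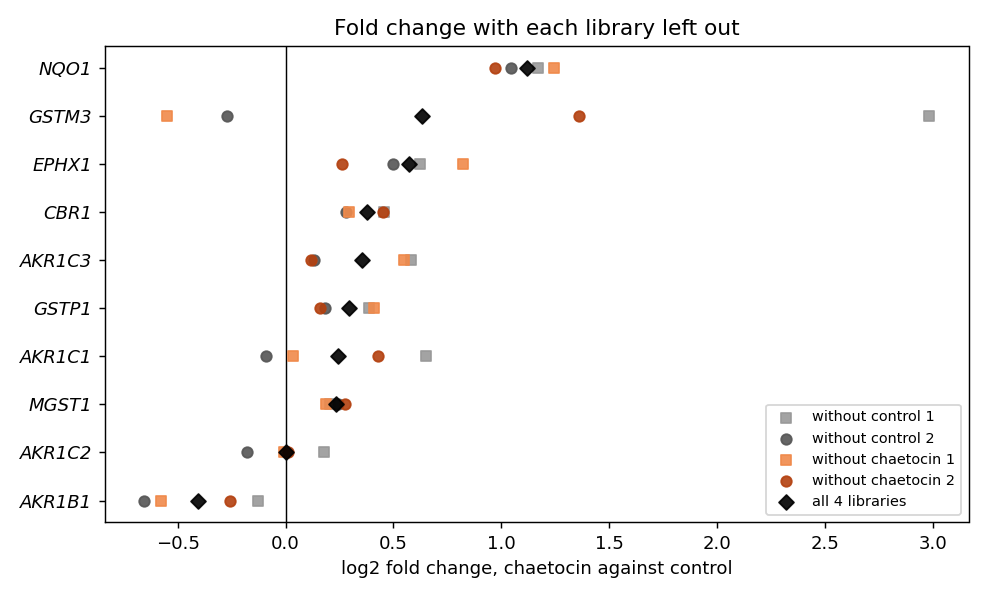
Log2 fold change of each enzyme gene with all 4 libraries (diamonds) and with each library left out in turn (circles and squares). *NQO1* ranges from 0.97 to 1.24 and stays clear of 0, while *AKR1C1*, *AKR1C2* and *GSTM3* lie on both sides of it.

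The regulators of NRF2 were examined as the pathway above the enzymes. Of 14 tested, 1 was called higher and 0 lower (4 higher and 1 lower at an unadjusted p under 0.05, and 2 higher and 1 lower by DESeq2), with a median log2 fold change of 0.00074 that was -0.0014 with RLE size factors and ran from -0.071 to 0.10 as single libraries were left out. The gene that rose was *MAFG*, a small MAF partner of NRF2, which had 77.1 and 97.4 CPM in control and 234 and 253 CPM in chaetocin samples (log2 fold change 1.48, adjusted p = 0.0173). The log2 value of *SQSTM1*, whose protein p62 competes for KEAP1, was 0.90 (adjusted p = 0.167), and that of *NFE2L1*, a relative of NRF2, was -0.68 (adjusted p = 0.126). Both of these passed by DESeq2 (adjusted p = 0.0291 and 0.0304), but with single libraries left out *SQSTM1* ran from 0.38 to 1.29 (adjusted p up to 0.494) and *NFE2L1* from -0.98 to -0.43 (adjusted p up to 0.456), where among these 4 fits each passed only without chaetocin 1. The gene of NRF2 itself, *NFE2L2*, and *KEAP1* were named after their values were seen. *NFE2L2* had 112 and 104 CPM in control and 85.3 and 88.2 CPM in chaetocin samples (-0.32, adjusted p = 0.247, edgeR). *KEAP1* had 60.6 and 60.0 CPM in control and 71.6 and 86.8 CPM in chaetocin samples (0.39, adjusted p = 0.204, edgeR). With single libraries left out, *NFE2L2* ran from -0.38 to -0.28 and *KEAP1* from 0.24 to 0.53.

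NRF2 targets with antioxidant rather than detoxifying roles were listed beside the enzymes, and the difference between the lists was not tested. Of 16 tested, 4 were called higher and 0 lower, with a median log2 fold change of 0.64 and 15 of the 16 having both chaetocin samples above both controls. DESeq2 called 10 of them higher and 0 lower, and at an unadjusted p under 0.05 there were 12 and 0. With single libraries left out the number called higher ran from 2 to 13, and 1 was called lower without chaetocin 1. *HMOX1*, which degrades heme, had 127 and 172 CPM in control and 1198 and 1276 CPM in chaetocin samples (log2 fold change 3.05, adjusted p = 0.00365). *TXNRD1*, which keeps thioredoxin reduced, had a value of 1.64 (adjusted p = 0.0306), *SLC7A11*, which imports cystine, 0.85 (adjusted p = 0.0496) and *GCLM*, a subunit of the enzyme that starts glutathione synthesis, 0.82 (adjusted p = 0.0341). Without control 1 or without control 2 the calls of *GCLM* (adjusted p = 0.237 and 0.124) and *SLC7A11* (0.0824 and 0.333) were lost. *SLC7A11* also missed the threshold with RLE size factors (adjusted p = 0.0512), with 10 counts required in each library (0.0562) and after downsampling (0.0501), which left 3 calls in the list. The log2 fold change of *NQO1*, 1.12, lies between those of *TXNRD1* and *SLC7A11*, and this order was not tested.

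Among 15 other quinone and carbonyl reductases, 1 rose and 0 fell, with a median of 0.27. At an unadjusted p under 0.05 there were 3 higher and 0 lower, and DESeq2 called 2 higher and 0 lower. Leaving out chaetocin 1 or chaetocin 2 gave 3 called higher, and leaving out control 1 or control 2 gave 0. *PTGR1*, which reduces reactive alkenals, had 69.1 and 67.8 CPM in control and 117 and 127 CPM in chaetocin samples (log2 fold change 0.83, adjusted p = 0.0341). *POR*, the reductase that feeds electrons to cytochromes P450, had a value of 0.51 (adjusted p = 0.174, edgeR). It passed in 1 of 8 alternatives that used every library, and its value ran from 0.31 to 0.68 as single libraries were left out. *AKR7A2*, an aflatoxin aldehyde reductase, had a value of -0.21 (adjusted p = 0.443, edgeR). The call of *PTGR1* was lost without control 1 (adjusted p = 0.168) and without control 2 (adjusted p = 0.147).

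The other glutathione transferases gave no call among 11 tested, by edgeR or DESeq2, and 0 at an unadjusted p under 0.05 in either direction. Their median log2 fold change was 0.10, at 0.24 without control 1 and 0.0036 without control 2, and 1 was called higher without chaetocin 1. The most abundant were *GSTK1* (-0.10, adjusted p = 0.750) and *MGST3* (-0.16, adjusted p = 0.562). Of the other epoxide hydrolases 1 of 3 was tested, *EPHX4*, with 1 and 15 counts in control and 22 and 14 counts in chaetocin samples (adjusted p = 0.490).

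Enzymes and pumps of neighbouring steps were described in the same way. Of 12 glucuronosyl- and sulfotransferase genes 1 rose and 0 fell (median 0.24): *UGDH*, which makes the UDP-glucuronate used for conjugation, had 80.6 and 83.7 CPM in control and 139 and 140 CPM in chaetocin samples (log2 fold change 0.76, adjusted p = 0.0396). At an unadjusted p under 0.05, 4 genes of this list were higher and 0 lower, and DESeq2 called 1 and 0. The median was 0.45 without chaetocin 1 and 0.12 without chaetocin 2, with 3 called higher in each of those fits, and 1 called lower in the first. The call of *UGDH* was lost without control 1 (adjusted p = 0.295) and without control 2 (adjusted p = 0.180). *UGP2*, which makes UDP-glucose (-0.06, but 0.017 with upper-quartile scaling, adjusted p = 0.891), did not pass. Of 15 aldehyde dehydrogenases 0 were called by edgeR or DESeq2, while 3 were higher and 4 lower at an unadjusted p under 0.05. With no filter on low counts 1 was called higher and 1 lower, and with a library left out 0 to 2 higher and 1 to 3 lower. Their median was 0.18, but it was -0.095 when at least 10 counts were required in every sample, -0.097 without control 1, -0.018 without chaetocin 1 and -0.11 without chaetocin 2. *ALDH18A1*, which acts in proline synthesis, had a value of -0.37 (adjusted p = 0.210) and *ALDH3A2*, which oxidizes fatty aldehydes, one of 0.27 (adjusted p = 0.478). Of 9 pumps that export conjugates 0 were called by either tool, with 2 higher and 0 lower at an unadjusted p under 0.05 and 1 called higher without chaetocin 1, and *ABCC4* had a value of -0.27 (adjusted p = 0.366).

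The aryl hydrocarbon receptor is another regulator of *NQO1* and of phase I enzymes, and its own gene fell. *AHR* had 171 and 161 CPM in control and 94.9 and 84.3 CPM in chaetocin samples (log2 fold change -0.89, adjusted p = 0.0333), a call that was lost without control 1 (adjusted p = 0.108). In its list of cytochromes P450 and partners, 1 of 11 was called lower and 0 higher (2 lower and 1 higher at an unadjusted p under 0.05, and 2 lower and 0 higher by DESeq2). The median was -0.05, but 0.02 with upper-quartile scaling, -0.13 without control 2 and -0.024 without control 1. *CYP1B1*, a classical target of the receptor, had 113 and 114 CPM in control and 71.8 and 75.7 CPM in chaetocin samples (-0.62, adjusted p = 0.0624). It passed by DESeq2 (adjusted p = 0.0158), with no filter on low counts (0.00860) and without chaetocin 1 or chaetocin 2 (0.00727 and 0.00937), and not in the other fits without a block. *ARNT*, the partner of the receptor, had a value of -0.05 (0.024 with upper-quartile scaling, adjusted p = 0.875).

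**Figure D4:**
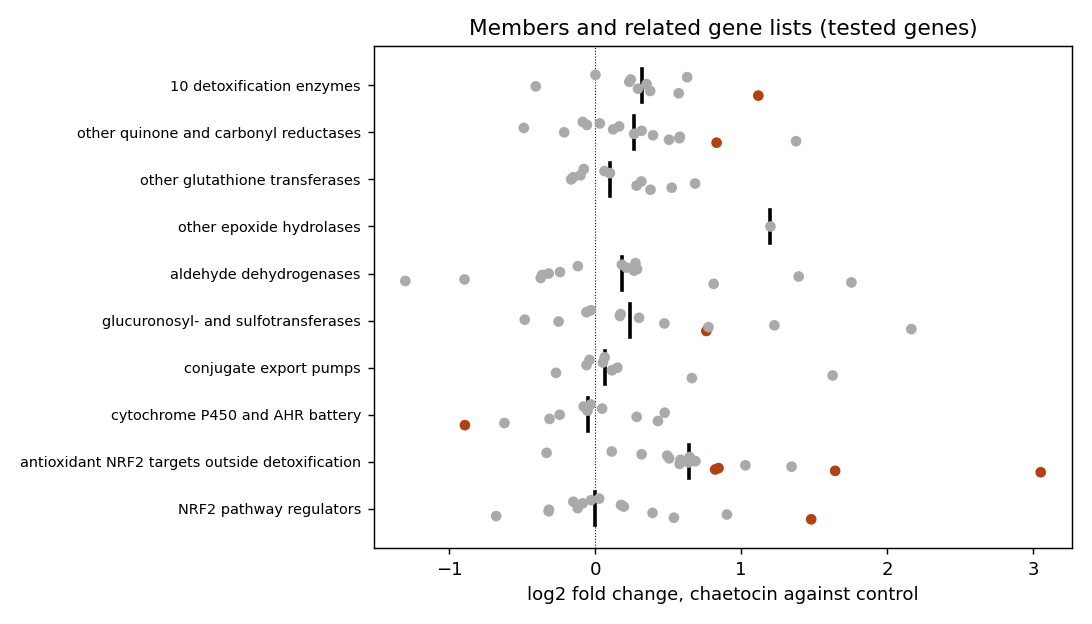
Log2 fold change of every tested gene in the 10 detoxification enzymes and in 9 lists of related genes, 1 point per gene, with genes at an adjusted p under 0.05 in orange and the median of each list as a black bar. The enzymes have a median of 0.32, the antioxidant NRF2 targets one of 0.64 and the NRF2 regulators one of 0.00074.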

How the data were processed

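Gene counts of 4 U87MG samples, 2 control and 2 chaetocin, were analysed. The authors deposited raw counts per Ensembl gene, 1 table per sample, without normalization. The submitters' processing notes name GRCh37, cutadapt, TopHat2, TopHat and SAMtools. The counting tool and its strand setting are not given in the sources used here. The labels and the study describe polyadenylated RNA, 15 cycles of PCR and 50 bp single-end reads. From the counts, edgeR 4.0.16 (R 4.3.3, limma 3.58.1) was run with filterByExpr (minimum count 10), TMM, a robust quasi-likelihood fit and Benjamini-Hochberg adjustment over 16416 genes, threshold 0.05. DESeq2 1.42.0 was an alternative. Symbols, positions and transcripts come from GENCODE v29 (52338 of 57905 identifiers listed), and promoters from RefSeq by symbol (10 of 10 enzyme genes matched). The enzymes and gene lists were chosen with earlier results of these data known. From each related list, up to 4 called genes were named, and with fewer than 2 calls the 2 most abundant tested genes as well. Some genes that this rule names are not reported here. Code was tested on simulated data. Totals ran from 21241984 to 32590479 counts, and replicates were not duplicates (chi-square per degree of freedom 21.7 for control, 60.8 for chaetocin samples). Alternatives were other size factors, filters, tools, depth, gene types, summed paralogs, a replicate block and each sample left out.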

Additional observations from a re-analysis of the deposited data

How the results depend on the processing

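Of 125 recalculated fold changes of the 10 enzymes (summed families left out), 112 kept direction and side of the threshold. *NQO1* was called in all 9 alternatives that used every library (log2 fold change 1.10 to 1.19), and in 3 of 4 with a library left out. The counts of genes higher and lower were 787 and 759 with no filter, 114 and 80 when 10 counts were required in each library, and 385 and 481 by DESeq2. Enzymes called higher were 2 with no filter. With each sample left out in turn, genes higher ranged from 215 to 1332, genes lower from 97 to 1673, enzymes higher from 0 to 3, enzymes lower from 0 to 0 and the enzymes' median from 0.16 to 0.52. Reversed values were -0.093 for *AKR1C1* without control 2 (range over left-out samples -0.093 to 0.65), and for *AKR1C2* -0.00061 with RLE size factors, -0.016 with no filter, -0.015 by DESeq2, -0.0074 without chaetocin 1 and -0.18 without control 2 (range -0.18 to 0.18). They were -0.55 without chaetocin 1 and -0.27 without control 2 for *GSTM3* (range -0.55 to 2.98), which had no value when 10 counts were required. Among related genes they were 0.017 (upper-quartile), 0.072 (without control 1) and 0.096 (without chaetocin 1) for *UGP2* (range -0.24 to 0.096), 0.024 (upper-quartile) for *ARNT* and -0.042 (without chaetocin 2) for *ALDH3A2* (range -0.042 to 0.52). For each of these the cause was not tested. Leaving out a library leaves an arm with 1 sample, which is assumed to vary like the other group. The samples of both groups carry the numbers 1 and 2, and the labels do not say what a number shares. Over 16300 genes the log2 differences of sample 2 from sample 1 correlated between the groups with r = 0.106, which with 2 pairs does not establish a pairing. With the replicate block, 1036 genes were higher and 1053 lower, all 304 calls were shared, and 2 enzymes were higher (*NQO1* and *EPHX1*, adjusted p = 0.0249 for the latter).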
